A study of Arabidopsis thaliana with 6 samples.

Results

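Studied here was the RNA of 10 Arabidopsis thaliana genes of SR proteins: SR30 (AT1G09140), SR34 (AT1G02840), RS31 (AT3G61860), RS40 (AT4G25500), RS41 (AT5G52040), RSZ22 (AT4G31580), SCL33 (AT1G55310), SR45 (AT1G16610), RS2Z33 (AT2G37340) and RS2Z32 (AT3G53500). The genes were chosen by locus name, as the entries of the gene comparison and of the isoform comparison that carry these 10 loci. This gave 10 of 33233 gene loci and 49 of 62921 isoforms. RNA was sequenced from the root apex of wild-type Columbia (Col-0) seedlings that were 8 days old and had been grown on vertical plates in constant light. The design has 3 libraries of zone II, a 1.5 mm section with the elongating and hair-forming cells, and 3 libraries of zone I, the terminal 0.5 mm with the root cap and the dividing cells. The authors' deposited tables compare conditions called experiment and control, 1 fold change and 1 Cuffdiff test per gene or isoform. No label ties either name to a zone, so directions are given for the experiment condition against the control condition, and the zones themselves are not compared.

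SR proteins bind pre-mRNA through RNA recognition motifs and contact other splicing proteins through a domain rich in arginine and serine. They help U1 snRNP and the U2AF heterodimer find the splice sites, and kinases that phosphorylate the RS domain set where they act and how strongly. Plants have subfamilies shared with animals and others of their own. Many plant SR genes are themselves alternatively spliced, often within 1 long intron, and a share of the resulting transcripts holds an early stop codon that nonsense-mediated decay can recognise.

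The long introns were read from the RefSeq annotation of TAIR10.1, since they are where annotated transcripts of these genes differ. The longest intron was 488 to 942 bp in 8 of the 10 genes, against a median longest intron of 298 bp over 22245 protein-coding genes with an intron, of which 23.5% reached 488 bp. RSZ22, with 203 bp, and SR45, with 275 bp, were the exceptions. In 9 of the 10 genes another annotated intron overlaps the longest one, against 14.7% of all genes. RS31 has 1 annotated transcript and is the exception. A gene with 1 transcript cannot hold such an overlap, and the 14.7% includes genes of this kind. The comparison is thus not matched for the number of transcripts. The sites shown are those of the paralogs RS40 and RS41 and of the paralogs RS2Z33 and RS2Z32, because each pair keeps an acceptor inside its long intron that is used with the same donor, and of SR30, the 1 gene with a positive fold change. Capitals mark the splice dinucleotide. Donors are shown with 6 exon and 12 intron bases and acceptors with 18 intron and 6 exon bases, 5′ to 3′ on the strand of the gene.
RS40 donor, chr4:13025268-13025285, plus strand: aagctgGTgagccttttt
RS41 donor, chr5:21131181-21131198, plus strand: aagctgGTaagtcttggt
RS40 inner acceptor, chr4:13025582-13025605, plus strand: gcattttctttgacgcAGgatgtg
RS41 inner acceptor, chr5:21131544-21131567, plus strand: catttgattttggcgcAGgatttg
RS40 outer acceptor, chr4:13026038-13026061, plus strand: tttttcttttttctccAGggtttg
RS41 outer acceptor, chr5:21132069-21132092, plus strand: ttttggttctctccccAGggtttg
RS2Z33 donor, chr2:15672213-15672230, minus strand: cggaagGTaattgactct
RS2Z32 donor, chr3:19836389-19836406, minus strand: cggaagGTaaagagtcat
RS2Z33 inner acceptor, chr2:15671813-15671836, minus strand: tgaatgatcttattgaAGgtctct
RS2Z32 inner acceptor, chr3:19836125-19836148, minus strand: tgaatgatcttgttgaAGgtttct
SR30 donor, chr1:2944157-2944174, minus strand: ctcaagGTatgagtgtta
SR30 inner acceptor, chr1:2943559-2943582, minus strand: gcgttgtttgttttctAGatctgg
SR30 outer acceptor, chr1:2943221-2943244, minus strand: tttttggtcttgctgcAGgtccca
Sites were compared position by position without gaps, so a shifted match is not counted. Between RS2Z32 and RS2Z33, 22 of the 24 bases at the inner acceptor are the same, against 15 of 24 at the outer acceptor and 11 of 18 at the donor. Between RS40 and RS41, 16 of 24 bases are the same at the inner acceptor, 19 of 24 at the outer acceptor and 14 of 18 at the donor. RS40 and RS41 also have annotated donors inside the intron that are used with the outer acceptor, and the most alike of these share 14 of 18 bases. The inner acceptor lies 326 bp from the donor in RS40, 375 bp in RS41, 406 bp in RS2Z33, 270 bp in RS2Z32 and 604 bp in SR30. SCL33 differs in having an annotated inner donor that starts with GC in place of GT.
SCL33 inner donor, chr1:20631717-20631734, plus strand: tagcagGCaagtgcttgc
The isoform identifiers in the authors' tables are not paired with annotated transcripts, so no isoform value below is assigned to either site.

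Most of the 10 genes were lower in the experiment condition, and by nearly the same factor. All 10 were tested, 7 fell at a Cuffdiff q under 0.01, none rose and 3 did not pass. At an unadjusted p under 0.05 the same Cuffdiff test gave 8 lower and 1 higher, where 60.3% of all tested loci passed, 30.6% lower and 29.8% higher. Over all 18050 tested loci 43.6% were called, 21.2% lower and 22.3% higher, so that a call is common here and the direction is about evenly split. At a q under 0.05, 8 of the 10 genes were lower and SR30 was higher, where 55.8% of all tested loci were called, 28% lower and 27.8% higher. A q under 0.001 gave 7 genes, against 32.7% of loci, 15.2% lower and 17.6% higher. With a q under 0.01 and an absolute log2 fold change of at least 1, 6 genes were called, all lower, against 38.2% of loci, 18.4% lower and 19.8% higher. The median log2 fold change of the 10 genes was -1.02, which is 49.4% of the control level, against -0.075 over all 17323 tested loci with a finite fold. The 7 genes that fell lay between -1.27 and -0.92 on the log2 scale, or 41.6% to 52.7% of the control level, a spread of 0.34. Between -1.3 and -0.9, limits set after the values were seen, lay 8 of the 10 genes and 8.04% of all tested loci. The members were chosen with earlier results of these data known, so the counts are given as a description. In sections of tissue, fewer cells that express a gene and less RNA per cell cannot be told apart.

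**Figure D1:**
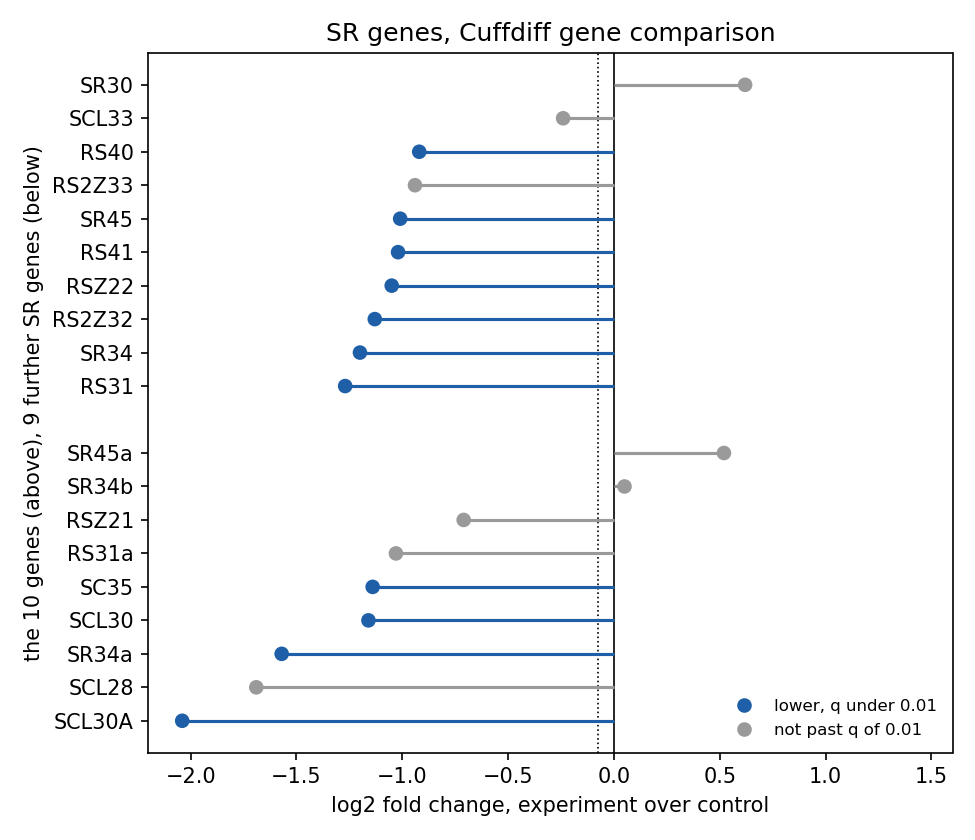
Log2 fold change (experiment over control, x axis) of the 10 SR genes and of 9 further SR genes, 1 point per gene, from the authors' deposited table, with calls at a Cuffdiff q under 0.01 in blue and others in grey. The solid line marks 0 and the dotted line the median of all tested loci, -0.075; 8 of the 10 genes lie between -1.3 and -0.9, SCL33 is at -0.24 and SR30 at 0.62.

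Markers of other cells moved much further between the same conditions. Of 5 tested markers of dividing cells all were called lower, with KNOLLE, a syntaxin of cell plate formation, at -4.98 and the cyclin CYCB1;1 at -3.95 in the authors' deposited table. For PLT1 and PLT2 the fold is a spreadsheet error, read here as 0 in the experiment condition. Of 5 root hair markers 4 were called higher, with LRX1 at 8.54 and RHD2 at 2.70 in the authors' deposited table. Of 3 root cap markers 2 were called lower, with folds that are error cells read in the same way. Of 3 shoot markers, RBCS1A was called higher, at 3.44 in the authors' deposited table. The part of these cell types in the SR values was not tested.

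The pair related to human SRSF1 stood on opposite sides of 0. SR34 was at -1.20 in the authors' deposited table, 43.5% of the control level, with a Cuffdiff q of 0.000177. SR30, its closest relative among the 10, was at 0.62 in the authors' deposited table, 154% of the control level, with p = 0.01 and a Cuffdiff q of 0.0206, which missed the threshold. SR30 is the only one of the 10 above 0. Their log2 values differ by 1.82, a difference that was not tested because no value per library was analysed here. The coding sequences of the pair are 71.1% identical over the aligned bases, and the longest exact stretch they share is 14 bp. SR34b, which is closer to SR34 with 83.4% identity, was at 0.05 with a Cuffdiff q of 0.909 in the authors' deposited table. On TAIR10 the authors' deposited table places SR34 at chr1:626741-629933 and SR30 at chr1:2942564-2945961.

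RSZ22, with 1 zinc knuckle and related to human SRSF7, contacts U1-70K. RSZ22 fell to 48.3% of the control level, at -1.05 with a Cuffdiff q of 0.000177 in the authors' deposited table, which gives its locus as chr4:15306654-15308347. SCL33 is an SC35-like protein of a type found in plants, with a charged extension before its RNA recognition motif. SCL33 was at -0.24 in the authors' deposited table, 84.4% of the control level, with p = 0.34 and a Cuffdiff q of 0.406, at chr1:20630028-20632973. It was the member nearest to the median of all loci. Its paralog SCL30A, 83.3% identical in coding sequence, was at -2.04 with a Cuffdiff q of 0.000177 in the authors' deposited table, the lowest value of the SR genes given here. The log2 values of SCL33 and SCL30A differ by 1.79, and this difference was not tested.

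The genes RS31, RS40 and RS41, of plant proteins of the RS subfamily with a pair of RNA recognition motifs, all fell. RS31a of the same subfamily had a like value, -1.03 in the authors' deposited table. It was not called, with a test statistic of -0.40 and a Cuffdiff q of 0.476. RS31 had the lowest value of the 10 genes, -1.27 in the authors' deposited table, or 41.6% of the control level, with a Cuffdiff q of 0.000177. RS41 was at -1.02 with a Cuffdiff q of 0.000177 in the authors' deposited table, and RS40 at -0.92 with a Cuffdiff q of 0.00078. The paralogs RS40 and RS41, 82.3% identical in coding sequence with a longest shared stretch of 36 bp, thus stood 0.10 apart on the log2 scale. The authors' deposited table gives RS31 at chr3:22900068-22902458, RS40 at chr4:13024571-13028036 and RS41 at chr5:21130320-21133621. In the annotation, RS40 overlaps AT4G25510 on the other strand by 42 bp, and RS41 overlaps AT5G52045 by 656 bp. The RS40 locus of the authors' comparison runs past the annotated gene end, chr4:13027484, and also overlaps AT4G07405. The kit does not mark strand, so reads in the overlaps cannot be told apart. AT4G25510 has the same span as RS40 in the authors' deposited table and was not tested there.

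In the RS2Z subfamily, which is plant-specific and carries a pair of zinc knuckles, 1 member fell and the other did not pass. RS2Z32 fell to 45.6% of the control level, at -1.13 with a Cuffdiff q of 0.000177 in the authors' deposited table, at chr3:19834343-19837088. RS2Z33 was at -0.94 with p = 0.0049 and a Cuffdiff q of 0.0111 in the authors' deposited table, at chr2:15669138-15672700, and just missed the threshold. The log2 value of RS2Z32 minus that of RS2Z33 was -0.20, and their coding sequences are 82.2% identical. AT2G37330, on the opposite strand, is given the same span as RS2Z33 in the authors' deposited table, with 2.01 and a Cuffdiff q of 0.0147. RS2Z33 overlaps that gene by 41 bp and AT2G08865 by 852 bp in the annotation, and the strand is not recorded in these libraries, so its value is uncertain. RS2Z32 overlaps AT3G53490 by 65 bp, which was at 0.84 with a Cuffdiff q of 0.116 in the authors' deposited table.

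SR45 is an SR-like protein with RS domains on both sides of its RNA recognition motif, related to human RNPS1 of the exon junction complex, and it contacts U1-70K and U2AF35. SR45 fell to 49.6% of the control level, at -1.01 with a Cuffdiff q of 0.000177 in the authors' deposited table, at chr1:5675704-5678852. SR45a, a separate SR-like gene, was at 0.52 with a Cuffdiff q of 0.0476 in the authors' deposited table and, like SR30, was above 0 without passing.

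**Figure D2:**
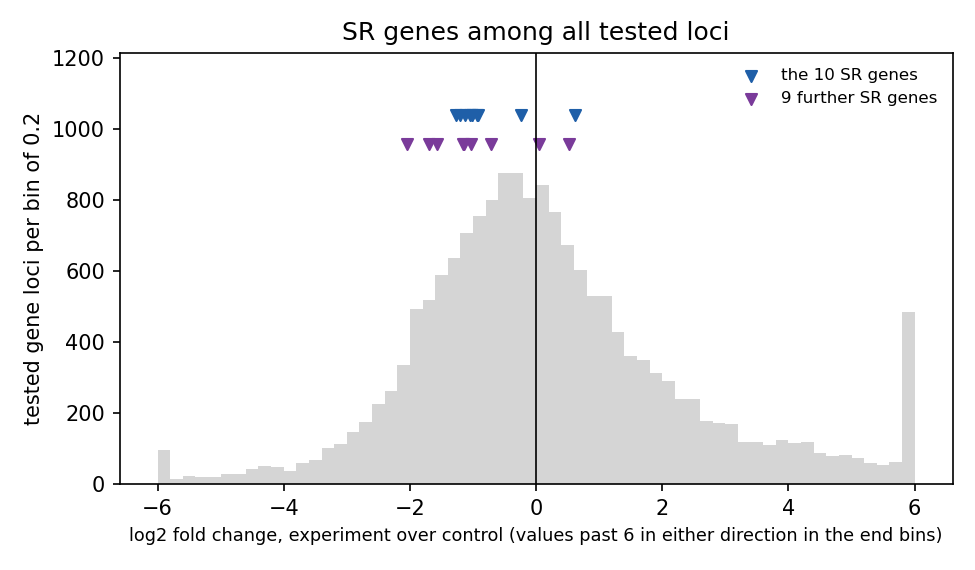
Number of tested gene loci in bins of 0.2 of the log2 fold change (experiment over control), with values past 6 in either direction placed in the end bins. The triangles mark the 10 SR genes, of which 8 are packed between -1.3 and -0.9, and 9 further SR genes, which run from -2.04 to 0.52; height of the triangles has no meaning.

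The isoforms carried fewer calls than the genes. Of the 49 isoforms 39 were tested, 3 fell at a Cuffdiff q under 0.01, none rose and 36 did not pass, while 10 had no test. At an unadjusted p under 0.05 the Cuffdiff test gave 9 lower and none higher, where 31% of all tested isoforms passed, 13.6% lower and 17.4% higher. Over all 32807 tested isoforms 16.8% were called, 6.9% lower and 9.93% higher. With a q under 0.05, 8 of the 39 were called, all lower, where 23.1% of all tested isoforms were called, 9.91% lower and 13.2% higher. The median log2 fold change over 38 tested isoforms with a finite fold was -0.48, against 0.11 over 31140 such isoforms of all genes. Of these 38 isoforms 24 were below 0 and 14 above it. The absolute test statistic had a median of 0.612 over the tested isoforms and of 2.6 over the 10 genes. Of the 7 genes that fell, 3 had an isoform that fell. The same share over all genes that fell was not computed, so this count is no trait of the family.

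The 3 isoforms that fell did so by almost the factor of their gene. They belonged to RSZ22 (TCONS_00042588, -1.08, Cuffdiff q of 0.000428), RS41 (TCONS_00053849, -1.09, Cuffdiff q of 0.000812) and SR45 (TCONS_00010045, Cuffdiff q of 0.00718) in the authors' deposited table. The SR45 isoform was at 49.9% of the control level, against 49.6% for its gene. Taking for each gene the tested isoform with the lowest q, 9 of the 10 had the sign of their gene and 8 lay within 0.3 of it on the log2 scale, a limit set after the values were seen. The exceptions to the second count were RS40 and SCL33. In RS40 that isoform, TCONS_00041852, was at -2.26 with a Cuffdiff q of 0.0184 in the authors' deposited table, and its difference from the gene was -1.34. In SCL33 it was TCONS_00005519, at 7.37 with a Cuffdiff q of 0.592 in the authors' deposited table, so that the fold is large and the test far from passing. Reads of an isoform also count towards its gene, so likeness between isoform and gene is partly built in. The counts of 9 and 8 were not made over all genes.

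Within a gene the tested isoforms often pointed both ways, though none above 0 passed. This was so in 7 of the 10 genes. The others, SR30, RSZ22 and RS2Z32, had only 2 tested isoforms each. The share over all genes was not computed, so the count is no trait of this family. SR34 had 6 isoforms between -1.76 and 0.86 in the authors' deposited table, and the one with the lowest q, TCONS_00000229, was at -1.21 with a Cuffdiff q of 0.0462. RS31 had TCONS_00038493 at -1.34 with a Cuffdiff q of 0.0111 and TCONS_00038494 at 0.13 with a Cuffdiff q of 0.928 in the authors' deposited table. In RS40 the other tested isoforms were at -0.80, -0.16 and 0.48 in the authors' deposited table, none with a Cuffdiff q below 0.449. RS2Z33 had TCONS_00025014 at -1.22 with a Cuffdiff q of 0.0128 in the authors' deposited table, and its others were at 0.03 and 0.47. Both tested isoforms were below 0 in RSZ22 and in RS2Z32, where TCONS_00037531 was at -1.39 with a Cuffdiff q of 0.0225 in the authors' deposited table. SR45 had 8 tested isoforms, 7 of them below 0, and the 1 above 0 was at 1.30 with a Cuffdiff q of 0.565 in the authors' deposited table. Both of SR30 were above 0, at 0.45 and 0.33 in the authors' deposited table, with Cuffdiff q-values of 0.454 and 0.73. Its other isoform, untested, has an error cell that was read as 0 in the experiment condition.

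**Figure D3:**
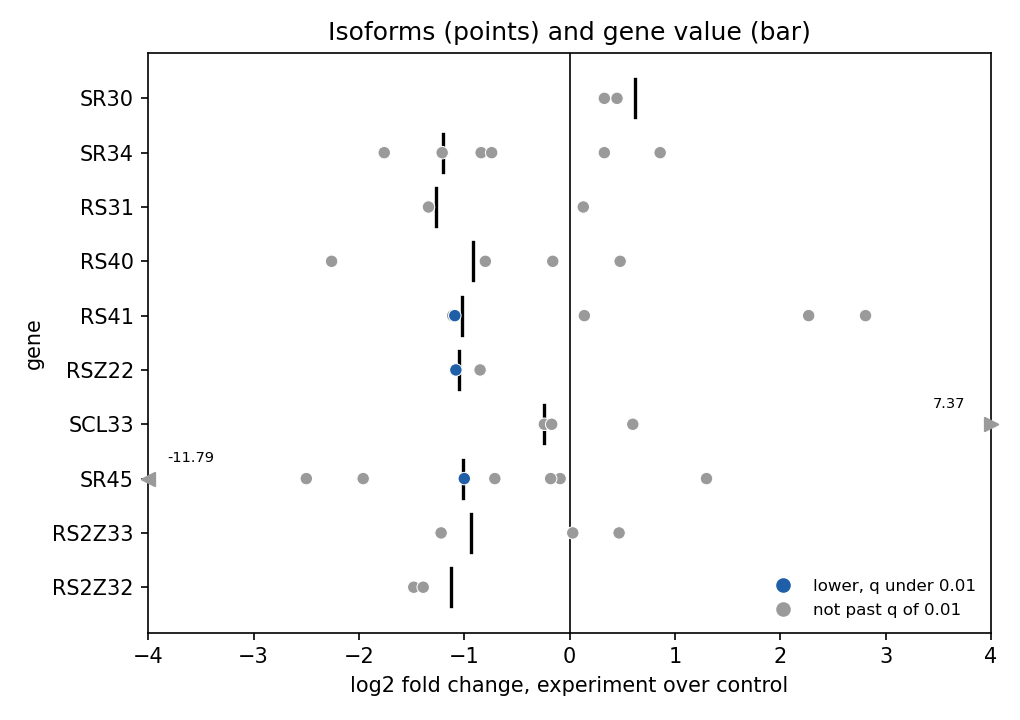
Log2 fold change (experiment over control, x axis) of the tested isoforms with a finite fold of each of the 10 SR genes (points) and of the gene itself (black bar), from the authors' deposited tables; blue marks a Cuffdiff q under 0.01 and the arrows 2 values outside the axis, 7.37 and -11.79. The 3 blue points sit at the bars of RS41, RSZ22 and SR45, and most other points are grey on both sides of 0.

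The distance between the lowest and the highest isoform was above the median of genes with the same number of tested isoforms in 4 of the 10 genes. The genes compared include the members themselves. RS31 spanned 1.47 on the log2 scale and RS2Z32 0.09, against a median of 0.82 over 5629 genes with as many. SCL33 spanned 7.61 and RS40 2.74, against 2.59 over 701 genes. RS41 spanned 3.92, against 3.05 over 179 genes, and has a further tested isoform that was listed at 0 in the control condition, with a Cuffdiff q of 0.367 in the authors' deposited table. Only 3 genes, SR45 among them, have 8 tested isoforms. Their median of 13.09 equals the span of SR45, so SR45 did not count as above it. SR45 had the widest span, because TCONS_00010039 was at -11.79, with a Cuffdiff q of 0.484 and a test statistic of -0.07 in the authors' deposited table. Folds of this size with such a statistic carry no call. The assembled isoform locus is shared with another gene in 3 of the 10, RS41 (with AT5G52030), SCL33 (with AT1G55250 and AT1G55265) and RS2Z32 (with AFC1, at 1.38 in the authors' deposited gene table). The isoform loci of SR30, RS31, SCL33 and RS2Z32 span 24364 to 32123 bp, against 2391 to 3398 bp in the gene comparison, so their isoform values are uncertain. AT5G52030 was called higher, at 2.11 with a Cuffdiff q of 0.000491 in the authors' deposited table, and its part in the RS41 isoforms at 2.27 and 2.81, both uncalled in that table, was not tested.

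Promoters were searched for 3 motifs on both strands in the 250 bases before each annotated gene start, since most members moved by a like factor. The letters TGGGCC, the core of the site II element of many growth-related plant genes, were in 5 of the 10 promoters. They were in 27.3% of 3630 promoters of genes called lower, in 8.13% of 3848 of genes called higher, in 17.1% of 16841 of tested genes and in 13.7% of 27443 of all protein-coding genes. The telo box AAACCCTA was in 0 of the 10, against 3.5% of tested genes, and TATAAA was in 5 of the 10, against 46.4%. The stretches around the TGGGCC matches are printed from TAIR10.1 on the strand of the gene, with TGGGCC and its reverse complement in capitals.
SR30, chr1:2946045-2946090, minus strand: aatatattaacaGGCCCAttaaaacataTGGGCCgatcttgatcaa
RS31, chr3:22902404-22902452, minus strand: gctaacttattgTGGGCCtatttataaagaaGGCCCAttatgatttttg
RS40, chr4:13024410-13024439, plus strand: gtttaacatataGGCCCAatactcctaaaa
RS2Z33, chr2:15672878-15672925, minus strand: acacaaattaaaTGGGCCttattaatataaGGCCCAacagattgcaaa
RS2Z32, chr3:19837163-19837192, minus strand: gagttgatataaGGCCCAataaaagtacta
SR30, RS31 and RS2Z33 hold the letters 2 times each, on opposite strands. The RS31 stretch lies before the annotated gene start but inside the locus of the authors' gene comparison, chr3:22900068-22902458. It may thus be transcribed in these data. Of these 5 genes, RS31, RS40 and RS2Z32 fell, RS2Z33 missed the threshold and SR30 was above 0. A match is a description of the sequence and no evidence that a factor binds there.

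The remaining SR genes, 9 with a locus of their own, were lower in 4 cases, higher in none and not called in 5, with a median log2 fold change of -1.14. Of all tested loci 43.6% were called, 21.2% lower and 22.3% higher, so the number of calls is near the background. All 4 calls were lower, which is too few to set their direction against that split. At an unadjusted p under 0.05 Cuffdiff had 6 lower and 1 higher, against 30.6% and 29.8% of all tested loci. The falls were those of SCL30A, SR34a, with -1.57, SCL30, with -1.16, and SC35, with -1.14, each with a Cuffdiff q of 0.000177 in the authors' deposited table. SCL28 was at -1.69 with a Cuffdiff q of 0.026 in the authors' deposited table, and RS31a, the paralog of RS31, at -1.03 with a Cuffdiff q of 0.476. RSZ22a, the paralog of RSZ22, shares its locus with a neighbour and was not counted.

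Genes of the list called splice site recognition were lower in nearly every case. This list also holds genes of general spliceosome proteins such as PRP8A. Of 12 tested, 11 fell and none rose, with a median of -0.88, where 21.2% of all tested loci were called lower and 22.3% higher. All 12 were lower at an unadjusted Cuffdiff p under 0.05, against 30.6% of all tested loci. The list was not tested as a group. The gene of U2AF35B, the small subunit that reads the acceptor dinucleotide, was at -1.44 in the authors' deposited table. That of PRP8A, at the core of the spliceosome, was at -1.36 there. Those of the U1 snRNP proteins U1-70K and U1A were at -1.21 and -1.16. PRP31 was the exception, at -0.67 with a Cuffdiff q of 0.0142 in the authors' deposited table.

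Among 8 tested genes of RS domain kinases and nuclear import, 2 fell, 1 rose and 5 were not called, with a median of -0.20. Called loci made up 43.6% of all those tested, 21.2% lower and 22.3% higher, so these counts are near the background. Both falls were kinases of the SRPK list, SRPK4 at -1.62 with a Cuffdiff q of 0.000917 and AT5G22840 at -1.51 with a Cuffdiff q of 0.00132 in the authors' deposited table. The rise was that of AFC1, a LAMMER-type kinase that phosphorylates SR proteins, at 1.38 with a Cuffdiff q of 0.00221 in the authors' deposited table. Uncalled members were AT4G35500 at 0.78 (Cuffdiff q of 0.0228) and AT3G44850 at -0.53 (Cuffdiff q of 0.17) in the authors' deposited table, and AT2G17530, joined with a neighbour, was not counted. None of 4 tested hnRNP-like genes with 1 entry each, whose products often oppose SR proteins, was called by Cuffdiff, and none was at an unadjusted p under 0.05. Their median was -0.17, with PTB2 at -0.45 (Cuffdiff q of 0.104) and PTB3 at -0.31 (Cuffdiff q of 0.202) in the authors' deposited table. GRP7, the fifth of that list, was left out of these counts because it has 2 entries with the same span, one called lower, at -2.90 with a Cuffdiff q of 0.000177, and one uncalled, at -1.95 with a Cuffdiff q of 0.301, in the authors' deposited table. None of 3 tested genes of nonsense-mediated decay was called by Cuffdiff, and none was at an unadjusted p under 0.05. UPF3 was at 0.34 with a Cuffdiff q of 0.367 and UPF1 at -0.33 with a Cuffdiff q of 0.19 in the authors' deposited table, and the median of the list was -0.19.

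**Figure D4:**
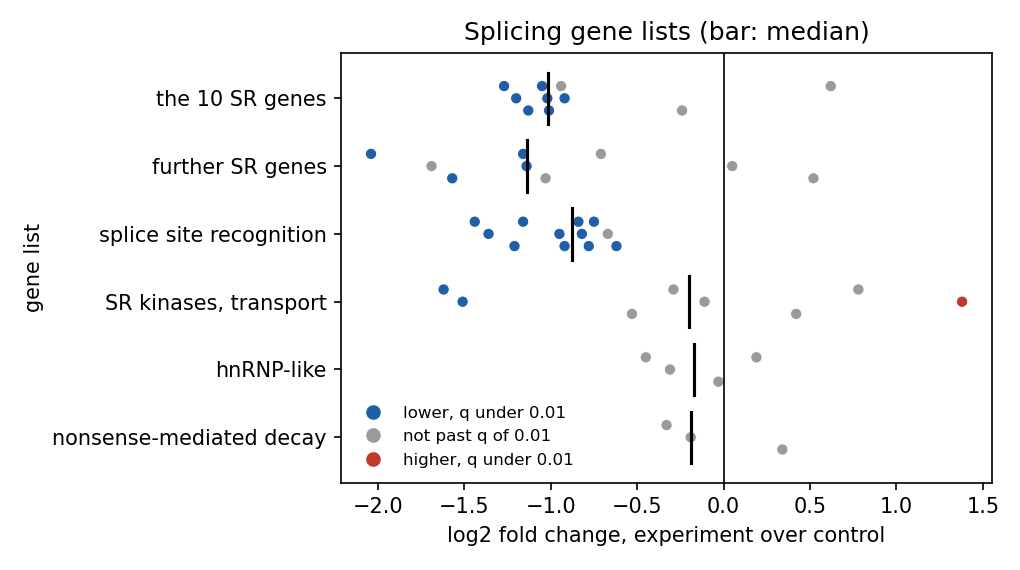
Log2 fold change (experiment over control, x axis) of each tested gene with 1 entry and a locus of its own in the lists of splicing genes, from the authors' deposited table, with the list's median as a black bar; blue is lower and red higher at a Cuffdiff q under 0.01, and vertical offsets within a list have no meaning. The medians lie at -1.02 for the 10 SR genes, -1.14 for further SR genes, -0.88 for splice site recognition, -0.20 for kinases and import, -0.17 for hnRNP-like genes and -0.19 for nonsense-mediated decay.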

How the data were processed

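Per the labels' protocols, low-input RNA was reverse transcribed by template switching with a SMART-Seq kit, and the PCR product was tagmented, which does not mark strand. The submitters' processing notes name TopHat, Cufflinks, Cuffdiff and TAIR10, with versions not given in the sources used here. Per the file headers, the deposited fold changes are log2 of experiment over control. A spreadsheet error stands in 1211 entries of the gene comparison and 3636 of the isoform comparison. These cells were read as minus infinity, that is, 0 in the experiment condition. This reading was not checked against the expression columns, and such entries that passed count as called lower. Cuffdiff's test statistic is a score in the deposited tables. Each p-value and q-value was taken from the authors' deposited Cuffdiff output, and the q was recomputed and equals a Benjamini-Hochberg adjustment over tested entries, with a largest relative difference of 4.96e-06. A q under 0.01, the authors' threshold, made a call. The percent of the control level was computed as 2 to the power of the log2 value.

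The tables give no value per library, so depth is unknown, folds carry no SD, and no replicate was left out. The expression columns, 2 in either table, were not used. Like the folds, they are not tied to a zone. Isoform shares per condition would need no zone, but they were not computed. Pseudocounts, filters on expression and sums of isoforms were not computed either. The deposited fold was not checked against these columns, and the levels behind the folds are not given. The tables were read with Python 3.11.15 and pandas 2.3.3, and coding sequences aligned with Biopython 1.88. The counting of calls was tested on simulated data. Introns, splice sites, promoters and names came from RefSeq on TAIR10.1. Of 28172 matched single-gene loci 28171 overlap the reference gene of the same name, and loci are those of the files on TAIR10, written from 1.

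Named were all 10 genes, each called isoform, and in each list up to 4 called and 2 uncalled genes with the largest absolute log2. The rule's minimum isoform share was not applied, since no share was computed. The other isoforms, SR34b, SR45a, the overlapping genes, the paralogs and the markers named were chosen after their values were seen. Members and lists were chosen with earlier results of these data known, and no list was tested. In the list of nonsense-mediated decay, 1 gene is not reported here. Whether the 3 libraries of a zone came from separate plants is not stated, so the p-values may measure technical spread.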

Additional observations from a re-analysis of the deposited data

How the results depend on the processing

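At a q under 0.05 in place of 0.01, 9 of the 10 SR genes were called, 8 lower and SR30 higher, where 55.8% of all loci were. At a q under 0.001 the count was 7, with an absolute log2 of at least 1 it was 6, and without the 3 members whose locus in the gene table overlaps another annotated gene it was 5. Without all 4 members that overlap another gene in the annotation (RS40, RS41, RS2Z33 and RS2Z32) it was 4, all lower, from fewer genes. Centring on the median of all tested loci turned no member's sign. With a q under 0.05, 8 isoforms were called, all lower, against 3 at 0.01, and without the genes sharing an assembled locus 2 were. At a q under 0.05 the further SR genes had 7 calls against 4. Kinases and import had 4 against 3, splice site recognition 12 against 11, and hnRNP-like genes and nonsense-mediated decay 0 at both. The alternatives without overlapping or sharing genes, and the lists at 0.05, were chosen after seeing the data. Not run were pseudocounts, filters on expression, sums of isoforms, the alternatives for isoform shares and leaving out replicates, which need values that were not used here. No paired analysis was possible because the tables hold no values per library. The smallest p Cuffdiff gave was 5e-05, shared by 5093 loci and 6 of the SR genes, so these cannot be ranked by p.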
